A study of Mus musculus with 12 samples.

Results

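Interferon-stimulated genes were followed in mesenchymal cells cultured from mouse small intestine, with and without the adaptor protein MyD88 and with and without bacterial lipopolysaccharide (LPS). The set was given as a list of 43 names: 39 genes that interferons induce or that carry the interferon signal inside the cell, and the 4 subunits of the type I and type II interferon receptors. Of the 43, 42 had values in all 12 libraries and were tested among 12385 genes, of 14907 listed in all. Mx1 was not analysed here. Gbp5 and Dhx58 passed the low-value filter through wt cells with LPS alone, the single group in which their mean normalized value reached 10.

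The study measured messenger RNA with 3′ RNA-seq (QuantSeq), which reads the ends of transcripts, in 4 groups of 3 libraries. All cells came from the strain C57/Bl6, were primary cells at passage 3 and were sorted on GFP. The MyD88 knockout (MyD88ko) carries the label ColVIcre-MyD88F/F-RosamTmG, in which Cre recombinase under a collagen VI promoter acts on floxed MyD88 and switches on the GFP reporter. The wild type (wt) carries the label MyD88F/F-RosamTmG, without Cre, whereas the design text calls it Cre-positive. A sort on GFP needs the reporter that Cre switches on, so the sort is at odds with that label. Which of these holds was not settled. If the label holds, Cre itself and the loss of MyD88 cannot be told apart. After serum starvation overnight, the LPS groups had 2 µg/ml of LPS from E. coli for 6 hours, and the untreated groups had none. The labels do not say that replicates came from separate animals, so p-values measure the spread between these libraries, which may be technical.

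The LPS receptor TLR4 uses MyD88 as its adaptor toward NF-κB and a separate adaptor, TRIF, toward IRF3 and the gene of interferon-β. Secreted type I interferon binds the receptor chains IFNAR1 and IFNAR2, and a complex that holds STAT2 and IRF9 then binds the interferon-stimulated response element (ISRE) in its target genes. Type II interferon binds IFNGR1 and IFNGR2 and acts at gamma-activated sites (GAS), and IRF1 can bind ISRE-like sequence by itself. The products of these genes detect foreign nucleic acid, attack intracellular microbes or tune the signal.

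Promoter sequences from RefSeq (GRCm38.p6) were matched by symbol for 35 members; 8 had no entry. Each window held 250 bases before and 50 bases after a gene's annotated start, 300 in all, and 3 motifs were searched on both strands. The ISRE core, read as GAAA, any 2 bases and GAAA (on the other strand TTTC, any 2 bases and TTTC), was found in 17 of the 35 members (48.6%) and in 3.99% of 27025 genes. The GAS core, TTCNNNGAA, was found in 12 members (34.3%) and in 9.55% of all genes, and the NF-κB motif, read as GGG, any 2 bases and TTTCC, in 2 members (5.71%, Gbp5 and Ifngr2) and in 1.89% of all genes. A match is a description of letters and was not tested as a binding site. Of the 8 members with an entry that rose with LPS in wt cells, 7 held the ISRE core, and Ifngr1 did not. Irgm1 and Irgm2, the members that fell, held the ISRE core too. The windows below were chosen because the results turn on these genes: 5 whose values with LPS are described at length, and Irgm2, a member that fell and also carries an ISRE core. Each is printed on its gene's strand, 5′ to 3′, from 180 bases before the start and ends before the first exonic base of GENCODE M21, and capitals mark motif matches. They lie at chr4:156200819-156200998 (minus strand), chr19:34583349-34583528 (plus), chr8:71537473-71537652 (minus), chr11:78984947-78985104 (minus), chr3:142496754-142496899 (plus) and chr11:58214797-58214976 (plus). The first 4 lie outside annotated genes, and those of Gbp5 and Irgm2 lie inside a gene's span but outside exons.
Isg15: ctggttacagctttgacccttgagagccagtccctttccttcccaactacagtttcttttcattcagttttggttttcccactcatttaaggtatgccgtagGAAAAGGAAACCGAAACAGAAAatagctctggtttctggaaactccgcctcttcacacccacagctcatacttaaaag
Ifit3: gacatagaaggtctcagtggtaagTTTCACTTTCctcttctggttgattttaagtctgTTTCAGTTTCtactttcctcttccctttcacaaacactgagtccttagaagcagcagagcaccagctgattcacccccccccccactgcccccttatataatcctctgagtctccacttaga
Bst2: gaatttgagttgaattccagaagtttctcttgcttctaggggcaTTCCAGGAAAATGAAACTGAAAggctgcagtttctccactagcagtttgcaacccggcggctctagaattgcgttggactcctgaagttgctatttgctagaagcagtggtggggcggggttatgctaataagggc
Lgals9: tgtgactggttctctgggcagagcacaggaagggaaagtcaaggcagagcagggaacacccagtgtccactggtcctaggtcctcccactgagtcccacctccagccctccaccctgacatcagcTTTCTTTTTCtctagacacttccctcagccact
Gbp5: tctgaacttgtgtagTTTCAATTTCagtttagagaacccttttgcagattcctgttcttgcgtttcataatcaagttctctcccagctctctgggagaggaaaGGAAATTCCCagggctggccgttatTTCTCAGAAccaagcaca
Irgm2: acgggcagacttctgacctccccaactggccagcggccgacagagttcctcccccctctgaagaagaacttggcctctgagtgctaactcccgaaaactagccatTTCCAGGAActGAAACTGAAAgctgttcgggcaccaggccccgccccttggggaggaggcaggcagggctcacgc
Isg15 held 3 ISRE cores that overlap each other, the first at 78 bases before the start. Ifit3 held 2, both on the other strand (TTTCACTTTC and TTTCAGTTTC). Bst2 held 2 overlapping ISRE cores, the first of which also overlaps a GAS core, TTCCAGGAA. Irgm2 held a GAS core with the same letters 75 bases before its start, next to the ISRE core GAAACTGAAA. Gbp5 held matches of all 3 motifs in this window.

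Reads counted in the listed genes were estimated at 2.5 to 5.3 megareads per library, and summed normalized values ran from 3598095 to 4319615. Myd88, the targeted gene, stood at normalized values, the unit of all levels below, of 99, 98 and 103 (wt untreated), 171, 204 and 213 (wt LPS), 14, 8 and 10 (MyD88ko untreated) and 24, 22 and 5 (MyD88ko LPS). All 13 mesenchymal markers were listed, with sums of 171417 to 174859 in the MyD88ko LPS libraries, above all others, and with the lowest sums, 73619 and 62658, in wt untreated replicates 1 and 3. Of 12 macrophage and dendritic markers 5 were listed, and the 4 with values in all libraries had sums of 18 to 50. Ptprc, Adgre1, Cd74 and Tyrobp were not among the genes listed. Myd88 was lower in MyD88ko, with log2 differences from wt of −3.15 untreated and −3.70 with LPS (limma, adjusted p = 0.000471 and 7.07e-05); which part was deleted is not given in the sources used here. Epithelial markers (5 of 12 with values in all libraries) summed to 393, 13 and 196 in wt untreated replicates 1, 2 and 3. In all other libraries these epithelial sums were 4 to 53. Glial and neuronal markers (4 of 7 with values in all libraries) summed to 1934, 1185 and 2539 in wt with LPS against 321 to 1397 elsewhere. Hepatocyte markers (4 of 7 listed) summed to 107 to 272 in the untreated libraries and to 3 to 19 in those with LPS. The part of these markers in the results below was not tested. In bulk samples, fewer cells of a type and less RNA per cell cannot be told apart. All untreated libraries carry lower library codes than all LPS libraries, so an effect of the library series and an effect of LPS cannot be told apart either.

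Of the 42 genes, 10 rose and 2 fell in wt cells given LPS. The 10 were the guanylate-binding proteins Gbp2 and Gbp5, the immunity-related GTPase Iigp1, the nucleic acid sensors Ddx58 and Zbp1, the antiviral effectors Bst2, Ifit1 and Lgals9, the ubiquitin-like modifier Isg15 and the receptor chain Ifngr1. Of these, Gbp5 passed the low-value filter through wt LPS cells alone, the group where it is high. The 2 that fell, Irgm1 and Irgm2, are regulatory immunity-related GTPases. The 12 calls are 28.6% of the members, where 19.2% of all genes tested were called (limma, adjusted p under 0.05 by Benjamini and Hochberg). By direction, 23.8% of the members were higher against 9.55% of all genes, and 4.76% were lower against 9.66%. The median log2 fold change of the members was 0.67, against 0.01 over all genes, and 33 of 42 members were positive. All fold changes here are on the log2(normalized value + 1) scale.

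The groups did not overlap, with every LPS library above every untreated one, in 17 members (40.5%, where 17.4% of all genes did so). Besides the 10 called, these were Dhx58, Dtx3l, Ifit3, Ifnar1, Igtp, Oasl2 and Stat2. Gbp5 and Dhx58 passed the filter through wt LPS cells alone, so their higher values there are no separate support. Every LPS library lay below every untreated one in Irf3, Irgm1 and Irgm2, which is 7.14% of the members, where 17.4% of all genes did so. Leaving out wt untreated replicates 1 and 3 together, the libraries with the higher epithelial sums, left 1 wt untreated library, assumed to vary like the other groups, and 7 calls, all higher: Bst2, Ddx58, Gbp2, Gbp5, Ifit1, Lgals9 and Xaf1. Over all genes, 7.88% were called in that fit. Besides Iigp1, Zbp1, Isg15 (1.99, adjusted p = 0.112) and Ifngr1 (1.02, adjusted p = 0.0922), both lower calls were lost there: Irgm1 was at −1.07 (adjusted p = 0.113) and Irgm2 at −0.71 (adjusted p = 0.412).

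**Figure D1:**
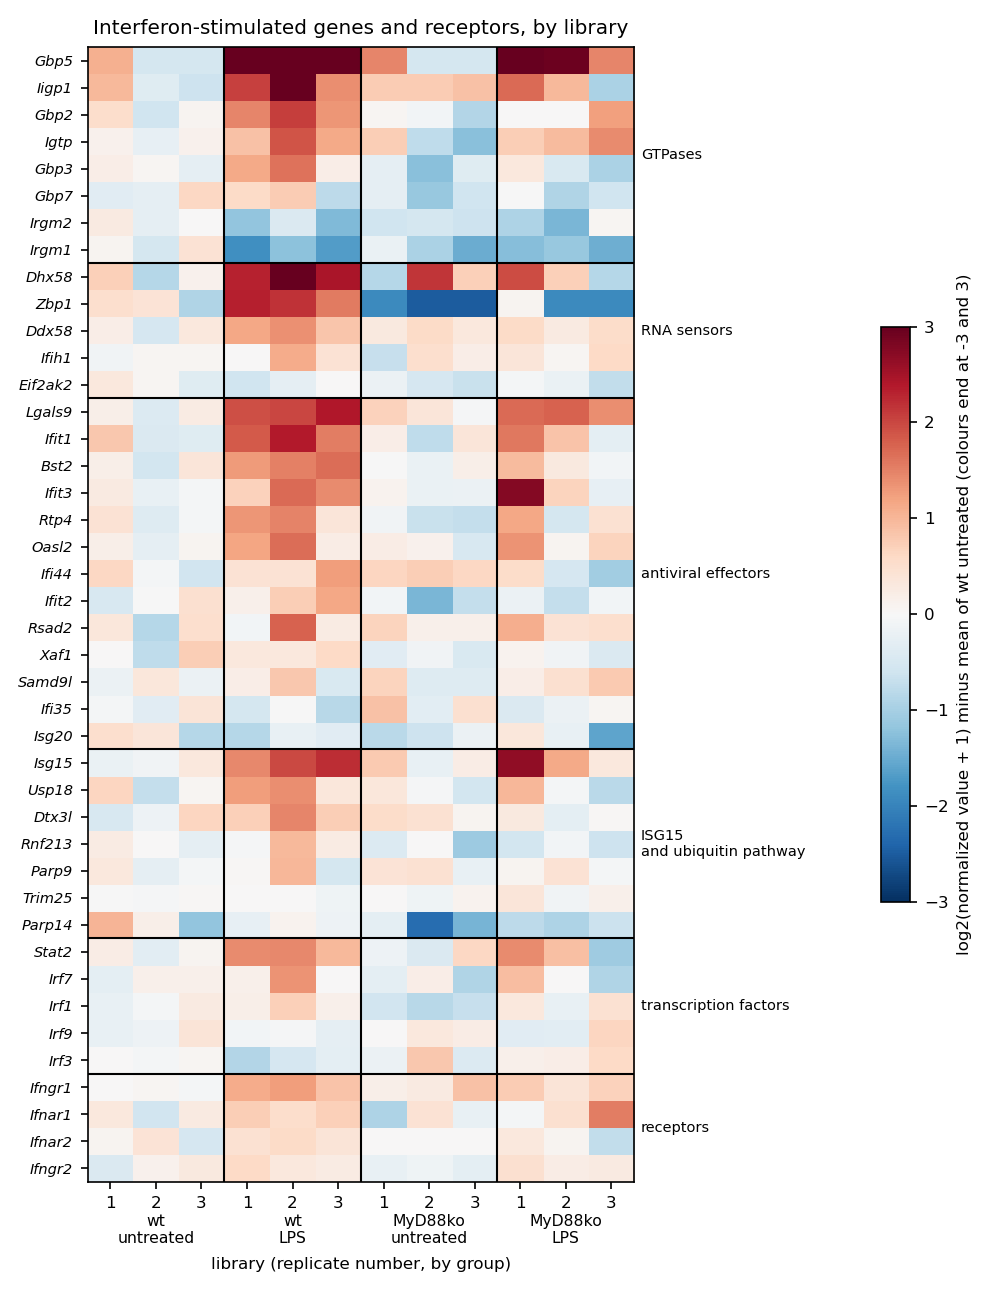
Heat map of the 42 genes (rows, by role and by wt response) in the 12 libraries (columns, by group); colour is log2(normalized value + 1) minus the mean of the 3 wt untreated libraries, and colours end at −3 and 3. The 3 wt LPS libraries are red in most rows, Irgm1 and Irgm2 are blue in them, and of the MyD88ko LPS libraries replicate 1 is the reddest at Isg15 and Ifit3.

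Among the 8 GTPases, 3 rose and 2 fell in wt cells with LPS and 0 were called in MyD88ko. Over all genes tested, 9.55% rose and 9.66% fell in wt, and 5.98% were called in MyD88ko. These shares belong beside the count of each role below as well. With so few genes in a role, such counts do not set the genotypes apart. Guanylate-binding proteins coat vacuoles and microbes inside the cell, and Gbp5 also promotes assembly of the NLRP3 inflammasome. Gbp5 (ENSMUSG00000105504, chromosome 3, 142493978 to 142522344, mm10) stood at 2, 0 and 0 (wt untreated) and 48, 69 and 52 (wt LPS). Its MyD88ko libraries stood at 3, 0 and 0 (untreated) and 16, 10 and 3 (LPS). Every wt LPS library was far above all others, and the MyD88ko LPS libraries reached down to the untreated range. The wt change was 5.30 ± 0.80 (SE, n = 3 per group; adjusted p = 0.000126). Its size depends on the pseudocount, being 6.04 with 0.5 and 3.44 with 5. In MyD88ko the change was 2.52 ± 0.80 and was not called (adjusted p = 0.0691); without MyD88ko LPS replicate 3 it was 3.11 and called (adjusted p = 0.0372).

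Gbp2 lies at the other end of the same 144 kb cluster on chromosome 3, after Gbp7 and Gbp3. It stood at 76, 34 and 55 (wt untreated), 147, 225 and 132 (wt LPS), 54, 49 and 28 (MyD88ko untreated) and 53, 53 and 123 (MyD88ko LPS). All wt LPS libraries lay above all others, and in MyD88ko only replicate 3 with LPS lay above the untreated wt range. Gbp2 rose 3.09-fold in wt (1.63 ± 0.38, adjusted p = 0.00469) and was at 0.73 ± 0.38 in MyD88ko (adjusted p = 0.277). Of its neighbours, neither Gbp3 (0.98 in wt, adjusted p = 0.181) nor Gbp7 (0.19, adjusted p = 0.833) was called.

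Iigp1, an effector GTPase that disrupts the vacuoles of intracellular parasites, stood at 14, 5 and 4 (wt untreated) and 31, 74 and 19 (wt LPS). Its MyD88ko libraries stood at 12, 12 and 13 (untreated) and 24, 14 and 3 (LPS). In wt the groups did not overlap although replicate 2 with LPS stood well above the others, and in MyD88ko the LPS libraries lay on both sides of the untreated ones. It rose 4.74-fold in wt (2.25 ± 0.66, adjusted p = 0.0221), a call lost without wt LPS replicate 2 (1.72, adjusted p = 0.121), wt LPS replicate 1 (adjusted p = 0.0549), or wt untreated replicate 2 (adjusted p = 0.0652) or 3 (adjusted p = 0.0816).

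Irgm1 and Irgm2 keep effector GTPases off the cell's own membranes. Irgm1 (chromosome 11, 48861968 to 48871683, mm10) stood at 649, 426 and 824 (wt untreated) and 169, 258 and 192 (wt LPS). Its MyD88ko libraries stood at 535, 318 and 216 (untreated) and 252, 275 and 222 (LPS). The wt untreated libraries were high and did not overlap with those given LPS, and the 3 MyD88ko untreated libraries spread over both ranges. Irgm1 fell 3.00-fold in wt (−1.58 ± 0.29, adjusted p = 0.000827) and was at −0.42 ± 0.29 in MyD88ko (adjusted p = 0.442).

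Irgm2 stood at 235, 161 and 197 (wt untreated), 85, 145 and 77 (wt LPS), 128, 136 and 127 (MyD88ko untreated) and 103, 75 and 203 (MyD88ko LPS). The wt groups did not overlap, the MyD88ko untreated libraries lay within the range of the wt LPS ones, and the MyD88ko LPS libraries reached into both ranges. It fell 1.98-fold in wt (−0.98 ± 0.32, adjusted p = 0.0346), a call that needed wt untreated replicates 1 (adjusted p = 0.126 without it) and 3 (0.0766) and wt LPS replicates 1 (0.123) and 3 (0.138) and was also lost by limma without trend (0.086). The span of Irgm2 overlaps that of Igtp on the same strand of chromosome 11, so reads could be split between them. Igtp, another regulatory GTPase, was at 1.3 in wt (adjusted p = 0.0946) and 1.46 in MyD88ko (adjusted p = 0.111) and was called in neither.

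Of the 5 RNA and nucleic acid sensors, Ddx58 and Zbp1 rose in wt and 0 were called in MyD88ko. Ddx58 encodes RIG-I, the cytoplasmic sensor of viral RNA ends. It stood at 133, 81 and 144 (wt untreated), 262, 301 and 207 (wt LPS), 143, 173 and 144 (MyD88ko untreated) and 174, 139 and 169 (MyD88ko LPS). The wt LPS libraries were above all the others, and the MyD88ko groups overlapped. The wt rise was 2.18-fold (1.12 ± 0.25, adjusted p = 0.00336), and the MyD88ko change was 0.07 ± 0.25 (adjusted p = 0.913).

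Zbp1 encodes a sensor of Z-form nucleic acid that can start necroptosis. It stood at 15, 14 and 5 (wt untreated) and 56, 50 and 32 (wt LPS), then 2, 1 and 1 (MyD88ko untreated) and 11, 2 and 2 (MyD88ko LPS). All 6 wt libraries but replicate 3 untreated lay above all 6 MyD88ko libraries. Zbp1 rose 4.05-fold in wt (2.02 ± 0.67, adjusted p = 0.0408), and this call was lost with a pseudocount of 0.5 (adjusted p = 0.058) and without any single wt library (adjusted p = 0.055 to 0.16). The MyD88ko change was 1.06 ± 0.67 (adjusted p = 0.389). Dhx58, which encodes LGP2, a regulator of RIG-I signalling, stood at 2, 0 and 1 (wt untreated) and 8, 18 and 9 (wt LPS), and its change of 2.72 ± 0.97 missed the threshold (adjusted p = 0.0557). Its MyD88ko libraries stood at 0, 7 and 2 (untreated) and 6, 2 and 0 (LPS), which overlap. Ifih1, the sensor MDA5, and Eif2ak2, the kinase PKR, were called in no comparison.

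Of the 13 antiviral effectors with values, 3 rose and 0 fell in wt, and Lgals9 alone of them rose in MyD88ko. Bst2 encodes tetherin, a membrane protein that holds budding virus at the cell surface. It stood at 343, 206 and 390 (wt untreated), 735, 864 and 968 (wt LPS), 298, 265 and 343 (MyD88ko untreated) and 584, 370 and 286 (MyD88ko LPS). The wt LPS libraries were the highest of all, and among the MyD88ko LPS libraries replicates 1 and 2 lay above the untreated range and replicate 3 inside it. Bst2 rose 2.81-fold in wt (1.49 ± 0.27, adjusted p = 0.000592) and was at 0.40 ± 0.27 in MyD88ko (adjusted p = 0.419).

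Lgals9 encodes galectin-9, a secreted lectin that binds sugars on immune cells. It stood at 75, 49 and 78 (wt untreated), 255, 269 and 353 (wt LPS), 107, 85 and 64 (MyD88ko untreated) and 218, 226 and 174 (MyD88ko LPS). The groups did not overlap in either genotype, and the MyD88ko LPS libraries lay between the untreated and the wt LPS ones. It rose 4.34-fold in wt (2.12 ± 0.26, adjusted p = 2.04e-05) and 2.43-fold in MyD88ko (1.28 ± 0.26, adjusted p = 0.0057). Both calls held under all 23 alternatives run for them.

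Ifit1, Ifit2 and Ifit3 bind viral RNA or one another and lie within 99.3 kb on chromosome 19. Ifit1 stood at 46, 19 and 20 (wt untreated) and 96, 139 and 77 (wt LPS), and rose 3.77-fold (1.92 ± 0.47, adjusted p = 0.00683). Its MyD88ko libraries stood at 30, 15 and 34 (untreated) and 80, 48 and 21 (LPS), which overlap (0.78 ± 0.47, adjusted p = 0.359). Ifit3 stood at 189, 135 and 151 (wt untreated), 254, 513 and 418 (wt LPS), 169, 136 and 138 (MyD88ko untreated) and 1059, 251 and 132 (MyD88ko LPS). The wt groups did not overlap, and MyD88ko LPS replicate 1 was the highest library of all while replicate 3 of the same group was the lowest. Ifit3 was not called in wt (1.27 ± 0.57, adjusted p = 0.15) or in MyD88ko (1.15 ± 0.57, adjusted p = 0.276). Ifit3 has a near-identical copy, Ifit3b, with 273, 214 and 218, then 169, 366 and 438, then 240, 167 and 263, then 987, 202 and 95 in the same order of groups, so the split of reads between the copies is uncertain.

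Ifi44, an interferon-induced cytoplasmic protein, was the effector with the largest difference between the 2 responses. It stood at 47, 29 and 20 (wt untreated), 41, 41 and 73 (wt LPS), 48, 51 and 47 (MyD88ko untreated) and 45, 21 and 14 (MyD88ko LPS). The wt groups overlapped, and all MyD88ko LPS libraries lay below all MyD88ko untreated ones. Neither change was called (0.70 in wt, adjusted p = 0.27; −1.0 in MyD88ko, adjusted p = 0.178). The other effectors, Ifit2, Rsad2, Oasl2, Isg20, Ifi35, Xaf1, Samd9l and Rtp4, were called in no comparison. Their wt changes ran from −0.47 (Isg20) to 1.06 (Rtp4). Rtp4 (adjusted p = 0.0599) was called in 5 of 23 alternatives.

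**Figure D2:**
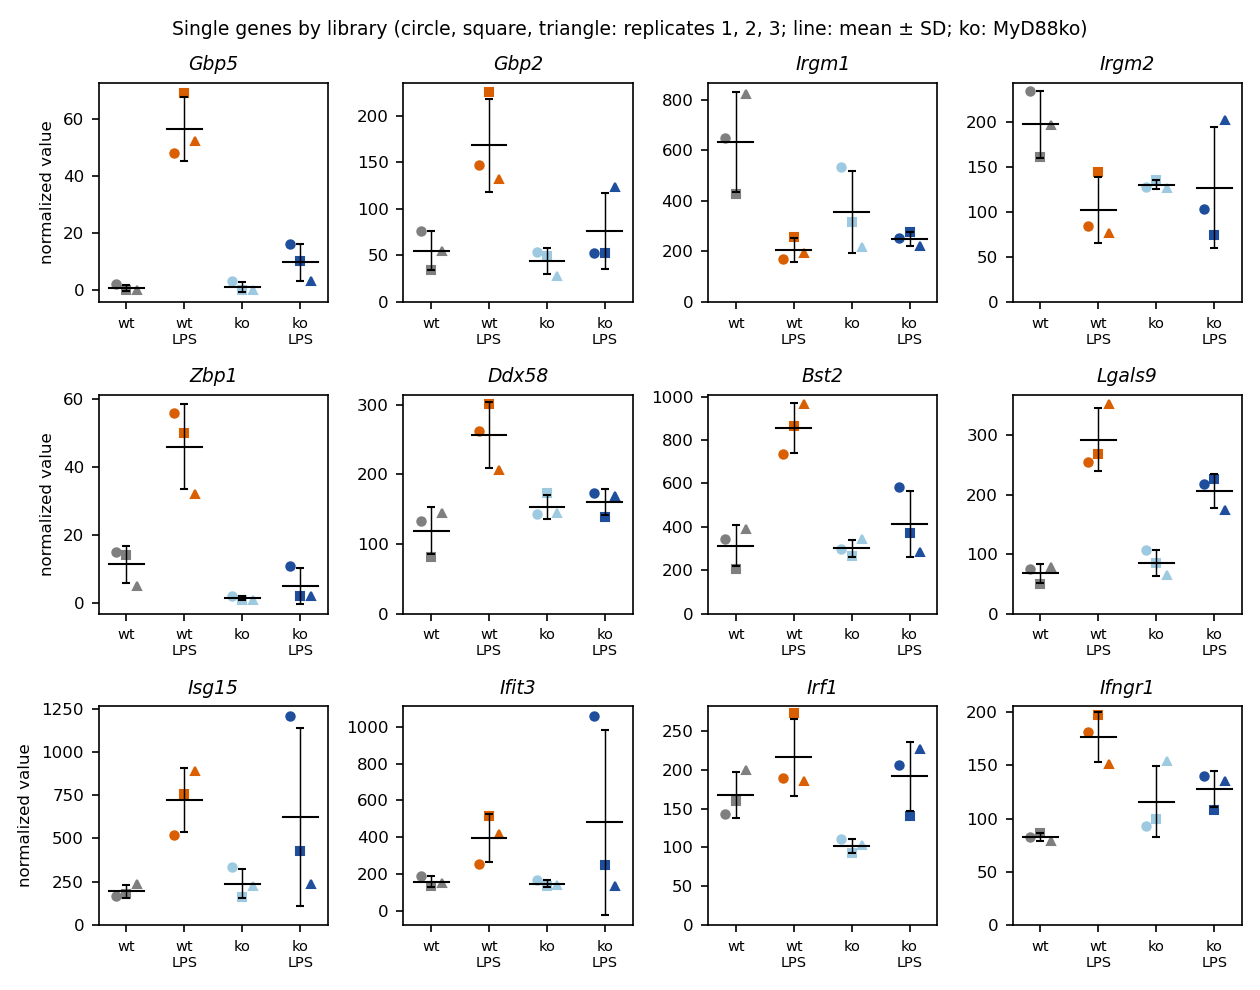
Normalized values (vertical axes, linear) of 12 single genes in wt untreated, wt LPS, MyD88ko untreated and MyD88ko LPS cells; circle, square and triangle are replicates 1, 2 and 3, and lines are mean ± SD (n = 3). Gbp5, Zbp1, Ddx58 and Bst2 are highest in wt LPS cells, Irgm1 and Irgm2 are highest in wt untreated cells, Lgals9 is higher with LPS in both genotypes, and MyD88ko LPS replicate 1 stands apart at Isg15 and Ifit3.

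Of the 7 genes of the ISG15 and ubiquitin pathway, Isg15 alone was called, in wt. Isg15 (chromosome 4, 156199424 to 156200818, mm10) encodes a ubiquitin-like protein that is joined to other proteins. It stood at 167, 177 and 237 (wt untreated), 521, 756 and 889 (wt LPS), 333, 163 and 223 (MyD88ko untreated) and 1210, 425 and 238 (MyD88ko LPS). The wt groups did not overlap, and the MyD88ko LPS group held both the highest library of the series and a library within the untreated range. Isg15 rose 3.67-fold in wt (1.88 ± 0.46, adjusted p = 0.0109), and its MyD88ko change of 1.11 ± 0.46 was not called (adjusted p = 0.18).

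Dtx3l, a ubiquitin ligase that pairs with Parp9, stood at 26, 33 and 58 (wt untreated) and 61, 103 and 62 (wt LPS), without overlap, and missed the threshold (0.97 ± 0.35, adjusted p = 0.0591). Its MyD88ko libraries stood at 54, 51 and 39 (untreated) and 45, 30 and 38 (LPS) (−0.35, adjusted p = 0.62). Parp9 overlaps Dtx3l on the opposite strand and was at 0.17 in wt (adjusted p = 0.795). Usp18, which removes ISG15 and restrains the type I receptor, was at 1.0 in wt (adjusted p = 0.127) and 0.12 in MyD88ko (adjusted p = 0.912). Trim25, a ubiquitin ligase of the RIG-I pathway, had values between 160 and 225 in all 12 libraries, and its changes ran from −0.03 to 0.18 over the 5 comparisons.

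Of the 5 transcription factors, 0 were called in wt, and Irf1 rose in MyD88ko. Irf1 stood at 143, 160 and 200 (wt untreated), 189, 273 and 186 (wt LPS), 111, 93 and 103 (MyD88ko untreated) and 206, 141 and 227 (MyD88ko LPS). The wt groups overlapped, the MyD88ko groups did not, and the MyD88ko untreated libraries were the lowest of all. Its rise in MyD88ko was 1.83-fold (0.87 ± 0.25, adjusted p = 0.0388), against 0.35 ± 0.25 in wt (adjusted p = 0.346). The MyD88ko call was lost in 8 of 23 alternatives, among them voom (adjusted p = 0.0529) and the removal of MyD88ko LPS replicate 1 (0.104) or 3 (0.116) or of any MyD88ko untreated library (0.0807 to 0.136). The difference between both Irf1 responses was 0.52 ± 0.35 (unadjusted p = 0.152). Stat2, a subunit of the ISRE-binding complex, was at 1.28 in wt (adjusted p = 0.095) and 0.40 in MyD88ko (adjusted p = 0.717). Irf9, the DNA-binding subunit of that complex, was at −0.13 in wt and −0.19 in MyD88ko. Irf3, whose product is activated by phosphorylation downstream of TRIF, was at −0.55 and 0.25. Irf7, an inducible relative of Irf3, was at 0.50 and 0.33.

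Of the 4 receptor chains, Ifngr1 rose in wt and 0 were called in MyD88ko. Ifngr1, the chain that binds type II interferon, stood at 83, 86 and 79 (wt untreated), 181, 197 and 151 (wt LPS), 93, 100 and 154 (MyD88ko untreated) and 140, 108 and 135 (MyD88ko LPS). The wt untreated libraries were the lowest of all, and the MyD88ko groups overlapped. It rose 2.11-fold in wt (1.08 ± 0.25, adjusted p = 0.00433) and was at 0.17 ± 0.25 in MyD88ko (adjusted p = 0.749).

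Ifngr2, its signalling partner, stood at 158, 232 and 262 (wt untreated), 324, 266 and 251 (wt LPS), 183, 194 and 174 (MyD88ko untreated) and 296, 247 and 258 (MyD88ko LPS). Only the MyD88ko groups did not overlap (0.53 ± 0.22, adjusted p = 0.167; wt 0.39, adjusted p = 0.24). Ifnar1 stood at 25, 13 and 24, then 34, 29 and 33, then 10, 27 and 17, then 19, 28 and 60 in the same order of groups. Its wt groups did not overlap, and its MyD88ko groups did. Ifnar2 stood at 225, 284 and 150, then 294, 317 and 276, then 214, 215 and 213, then 263, 225 and 126, overlapping in both genotypes. Neither type I chain was called in any comparison (lowest adjusted p = 0.237).

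In MyD88ko cells given LPS, 2 of the 42 genes rose, Irf1 and Lgals9, and 0 fell. The 2 are 4.76% of the members, where 5.98% of all genes were called in this contrast, 2.58% as higher and 3.4% as lower. At an unadjusted p under 0.05 there were 8 of 42 members (19%), where 2600 of 12385 genes (21%) were. The median change was 0.30, against 0.00 over all genes, and 32 of 42 were positive. Every LPS library lay above every untreated one in 3 members (7.14%: Ifngr2, Irf1 and Lgals9), where 12.2% of all genes did so, and below in 1, Ifi44, where 13.3% did so. Both responses were positive in 27 members and negative in 4. In 6 the wt response alone was positive, and in 5 the MyD88ko response alone.

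**Figure D3:**
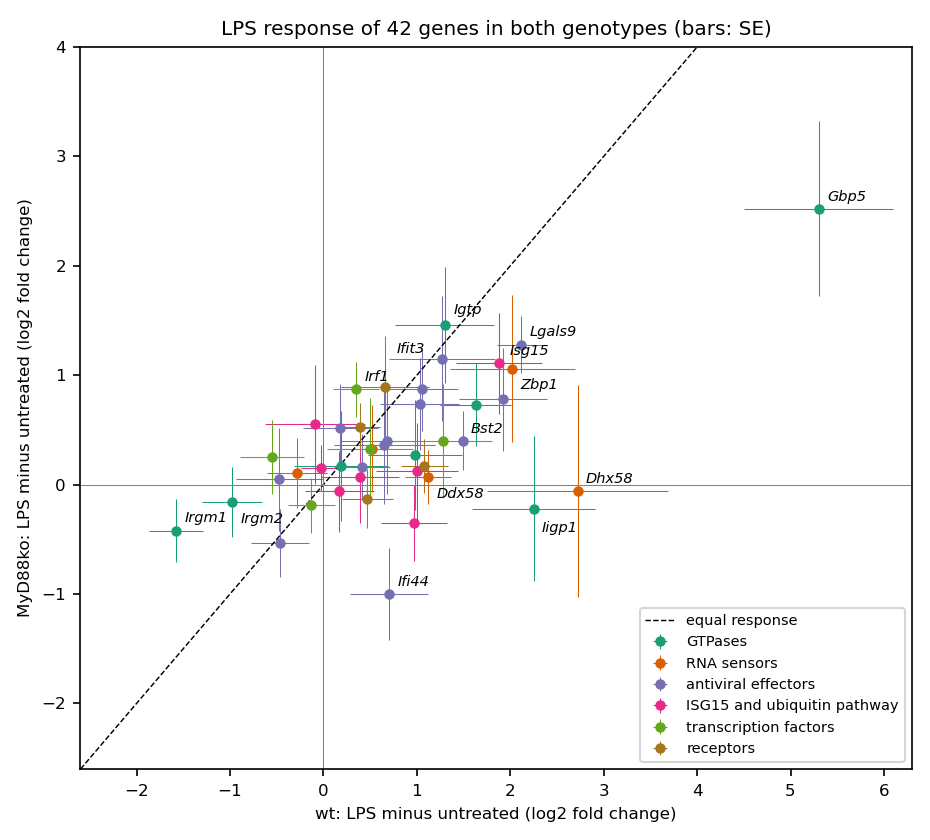
LPS response of the 42 genes in MyD88ko cells (vertical axis) against that in wt cells (horizontal axis), both as log2 fold change with SE bars (n = 3 per group), coloured by role; the dashed line marks equal responses. Of the 42, 30 lie below the line, Gbp5 is farthest to the right at 5.30 and 2.52, and Irgm1 is farthest to the left at −1.58 and −0.42.

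The summed level of the 42 genes in MyD88ko with LPS rested largely on replicate 1. Summed normalized values were 6421, 3969 and 4009 in that group, 4800 ± 1400 (SD, n = 3), against 3619 ± 334 in MyD88ko untreated, 4010 ± 578 for untreated wt and 6051 ± 786 for wt with LPS. Replicate 1 exceeded the mean of replicates 2 and 3 by 2432, of which 1746 (71.8%) came from Isg15 and Ifit3. In Isg15 it was 3.65 times and in Ifit3 5.53 times the mean of the other 2 libraries. The ratio of the mean sum with LPS to that without was 1.51 in wt and 1.33 in MyD88ko. Without MyD88ko LPS replicate 1 the MyD88ko ratio was 1.1, and without Isg15 and Ifit3 the ratios were 1.35 and 1.14. No test was made of these sums.

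**Figure D4:**
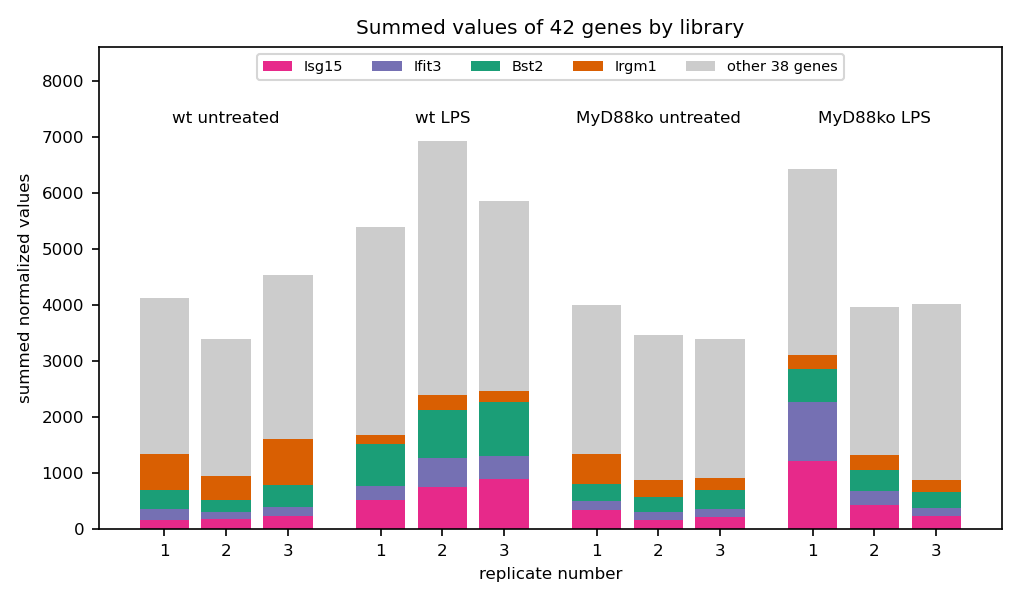
Summed normalized values of the 42 genes (vertical axis, from 0) in each of the 12 libraries, with the shares of Isg15, Ifit3, Bst2 and Irgm1 in colour and the other 38 genes in grey. MyD88ko LPS replicate 1 reaches 6421, with 1210 from Isg15 and 1059 from Ifit3, while replicates 2 and 3 of that group are at 3969 and 4009.

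Replicate 1 stood above the rest of its group in most members, not in Isg15 and Ifit3 alone. It was the highest of the 3 MyD88ko LPS libraries in 26 of 42 members (61.9%), where it was so in 33.1% of all genes tested. Glial and neuronal markers (4 of 7 with values in all libraries) summed to 1397, 884 and 516 in replicates 1, 2 and 3 of this group. Of 9 endothelial markers 3 were listed, and the 1 with values in all libraries stood at 160, 91 and 70. Of 10 lymphocyte markers 2 were listed, and the 1 with values in all libraries stood at 11, 0 and 0. The part of these cells in the levels of replicate 1 was not tested. By median, replicate 1 exceeded the mean of the other 2 by 0.84 (log2) over the effectors and 0.38 over the GTPases. Lgals9 and Irf1 were not high in it, at 1.09 and 1.12 times the mean of the others, and Gbp2 and Irf9 were lower in it, at 0.602 and 0.663 times. Without replicate 1 the median response of the members in MyD88ko was 0.11. Lgals9 was then the 1 member called (1.24, adjusted p = 0.0227), where 4.83% of all genes were. In that fit Isg15 was at 0.47 (adjusted p = 0.434) and Ifit3 at 0.31 (adjusted p = 0.625). Without replicate 3 instead, 4 were called, where 5.26% of all genes were: Gbp5, Lgals9, Isg15 (1.64, adjusted p = 0.0238) and Ifit3 (1.80, adjusted p = 0.042). In the authors' deposited table for this comparison, Ifit3 was the 1 member with an adjusted p under 0.05 (0.00661), where 0.755% of its genes were.

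The wt LPS group had a library of its own that stood high. Replicate 2 was the highest of the 3 in 31 of 42 members (73.8%), among them all 8 GTPases, where it was so in 32.0% of all genes. Bst2, Lgals9, Isg15 and Ifi44 were instead highest in replicate 3, and Zbp1 in replicate 1. Without replicate 2, 10 members were called in wt, without Iigp1 and Zbp1, while the share over all genes was 15.7% in place of 19.2%, and the median response was 0.65 over 41 members tested.

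With LPS, 2 members were lower in MyD88ko than in wt cells. Bst2 was 2.15-fold lower (−1.1 ± 0.27, adjusted p = 0.0385) and Zbp1 9.61-fold lower (−3.26 ± 0.67, adjusted p = 0.0124). These are 4.76% of the members, all of them lower, where 1.04% of all genes were lower, 0.452% higher and 1.49% called in either direction. Zbp1 passed the low-value filter through the wt groups alone, where it is high, so its lower values in MyD88ko are no separate support. The median difference was −0.50 against 0.00 over all genes, and 34 of 42 were negative (27 of 41, with a median of −0.39, without wt LPS replicate 2). At an unadjusted p under 0.05 there were 14 members (33.3%, where 1486 of 12385 genes, or 12%, were). The Bst2 call was lost in 10 of 23 alternatives, including limma without trend (adjusted p = 0.163), and the Zbp1 call in 4 of 22, each without 1 LPS library (adjusted p = 0.0535 to 0.0949). The count was 0 without wt LPS replicate 1, wt LPS replicate 2 or MyD88ko LPS replicate 2.

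Every MyD88ko LPS library lay below every wt LPS library in 14 members (33.3%), where 8.31% of all genes did so. These were Bst2, Ddx58, Dhx58, Dtx3l, Gbp2, Gbp5, Ifit2, Ifnar2, Ifngr1, Lgals9, Parp14, Rnf213, Xaf1 and Zbp1. Dhx58 and Gbp5 passed the filter through wt LPS cells alone and Zbp1 through wt cells alone, so they are no separate support here. Irf3 alone lay the other way, with 26, 34 and 39 in wt and 54, 56 and 74 in MyD88ko, where 7.54% of all genes did so. Isg15 and Ifit3 were not among the 14, since MyD88ko LPS replicate 1 was above all wt LPS libraries in both.

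Between the untreated genotypes, none of the 42 was called by limma, where 1.88% of all genes were (0.791% higher and 1.09% lower in MyD88ko), and 4 (9.52%) had an unadjusted p under 0.05, where 15.5% of all genes did. The median difference was −0.05. Irf1, Irgm2 and Zbp1 were lower in every MyD88ko untreated library than in any wt untreated one (7.14% of members, where 9.89% of all genes were), and Ifngr1 was higher (2.38%, where 10.5% were). The nearest to a call was Zbp1 (−2.30 ± 0.67, adjusted p = 0.0913). Because Zbp1 passed the filter through wt cells alone, its lower values in MyD88ko are no separate support here either. Irgm1, at −0.88 (adjusted p = 0.138), was called once either wt untreated replicate 2 or replicate 1 of MyD88ko untreated was removed. With 3 libraries a group, the SEs of these differences ran from 0.21 (Trim25) to 0.97 (Dhx58).

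The difference between both LPS responses was itself tested, and 0 of the 42 members were called (limma), where 0.0161% of all genes, 2 of 12385, were (0.00807% in each direction). At an unadjusted p under 0.05 there were 9 members (21.4%, where 9.18% of all genes were): Bst2, Ddx58, Dtx3l, Gbp5, Ifi44, Ifngr1, Iigp1, Irgm1 and Lgals9. Of these, 8 had the lower fitted response in MyD88ko, led by Gbp5 (−2.78 ± 1.13), Iigp1 (−2.46 ± 0.94) and Ifi44 (−1.71 ± 0.60). Gbp5 passed the filter through wt LPS cells alone, so its place in this order is no separate support. Irgm1 differed the other way, by 1.17 ± 0.41, from −1.58 in wt to −0.42 in MyD88ko. The smallest adjusted p among them was 0.362 (Ddx58). The wt response was the larger in 30 of 42 members (71.4%), against 50.2% of all genes, with a median difference of −0.27. That count rested on wt LPS replicate 2: without it, the wt response was the larger in 20 of 41 members and the median difference was 0.02. Without MyD88ko LPS replicate 1 it was the larger in 28 of 42, with a median of −0.54.

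Other genes of the pathway were followed in lists. Of 65 further interferon-stimulated genes, 54 were listed and 43 tested. Of the 43, 10 rose and 1 fell in wt, and 2 rose in MyD88ko (Cxcl10 and Phf11d). With LPS, 1 gene, Ube2l6, was lower in MyD88ko than in wt. Over all genes, 9.55% rose and 9.66% fell in wt, 2.58% rose in MyD88ko, and 1.04% were lower in MyD88ko with LPS. The median change of the 43 was 0.79 in wt and 0.20 in MyD88ko, against 0.01 and 0.00 over all genes. Apol9a, Apol9b, Ifi203, Ifi204, Slfn9 and Uba7 passed the low-value filter through wt LPS cells alone, and Trim21 through MyD88ko LPS cells alone. Ccl5, Phf11d, Slfn8 and Tgtp1 passed it through the LPS groups alone. The higher values of these genes in those groups are no separate support, in the medians or in the Phf11d call. Slfn2, which restrains proliferation of immune cells, rose 4.41-fold in wt (adjusted p = 0.00037), and Irf2, a relative of Irf1, 2.36-fold (adjusted p = 0.0108). Daxx, a histone chaperone, rose 1.72-fold (adjusted p = 0.0204). Cxcl10, a lymphocyte chemokine, stood at 12, 10 and 19 (wt untreated) and 84, 177 and 95 (wt LPS), then 6, 2 and 5 (MyD88ko untreated) and 85, 67 and 22 (MyD88ko LPS). In neither genotype did its groups overlap, unlike Isg15 and Ifit3 in MyD88ko. Ube2l6, the conjugating enzyme of ISG15, rose 2.43-fold in wt (adjusted p = 0.0302) and was at −0.88 in MyD88ko (adjusted p = 0.21), while its LPS level was 3.06-fold lower in MyD88ko than in wt (adjusted p = 0.0475). In this list too, wt LPS replicate 2 and MyD88ko LPS replicate 1 were each the highest of their group in 24 of 43 genes (55.8%).

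None of 10 interferon genes, Ifnb1 and Ifng among them, was among the genes listed, so the ligands themselves were not analysed here. Of 14 tested genes of the TRIF arm and of nucleic acid sensing adaptors, 3 rose in wt and 0 were called in MyD88ko. Over all genes tested, 9.55% rose and 9.66% fell in wt, and 5.98% were called in MyD88ko. The medians of the 14 were −0.04 in wt and 0.45 in MyD88ko. Cd14, among the 14, passed the filter through wt LPS cells alone. Ticam1, which encodes TRIF, rose 2.45-fold (1.29 ± 0.33, adjusted p = 0.00836), Tmem173, which encodes STING, 1.97-fold (adjusted p = 0.00811) and Tank, an adaptor of the kinase TBK1, 1.96-fold (adjusted p = 0.0224). Of 8 tested transducers and brakes of the interferon signal, 3 rose and 1 fell in wt and 0 were called in MyD88ko. The shares over all genes are those given for the TRIF arm. The medians of these 8 were 0.48 in wt and 0.17 in MyD88ko. Socs1 is among these 8 and also among the 43. The receptor kinases Jak1, Tyk2 and Jak2 rose 1.92-fold, 2.34-fold and 1.73-fold (adjusted p = 0.00649, 0.0286 and 0.0421), and the phosphatase Ptpn11 fell 2.58-fold (adjusted p = 0.000144).

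In the authors' deposited table for LPS in wt, 8 members had an adjusted p under 0.05: Bst2, Gbp2, Gbp5, Ifit1, Ifit3, Irgm1, Isg15 and Lgals9, where 4.35% of its genes did. In their 2 deposited tables comparing the genotypes, 0 of the 40 and 42 members listed did so, untreated or with LPS, where 1.6% and 0.544% of the genes did.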

How the data were processed

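The authors deposited 1 table per comparison with a value per gene and library; all 12 libraries were used. The deposited scores are read counts per gene that the authors had normalized, per the file headers; all are whole numbers. Of 166719 values that appear in more than 1 table, 0 differed. The tables also hold the authors' adjusted p-value. TopHat2, Bowtie2, DESeq and mm10 are named, without versions, per the submitters' processing notes. Depth in the listed genes is an estimate, taken from whole numbers that rounded low values skip. The match behind it varied, from r = 0.567 in MyD88ko LPS replicate 3 to 0.984 in wt LPS replicate 3.

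Values were tested as log2(value + 1) with limma 3.58.1 (trend, robust empirical Bayes) in R 4.3.3, in a single fit of 12 libraries with 1 coefficient for each group and 8 residual df. Of 13951 genes with values in all 12 libraries, 12385 reached a mean of 10 in some group and were tested. Calls are two-sided with Benjamini-Hochberg adjusted p under 0.05 over all genes tested. The 5 comparisons share groups, so they are given side by side.

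The members, gene lists, marker lists and motifs were chosen with earlier results of these data known. Values per library are given for members called in any comparison, for those with an unadjusted p under 0.05 in the difference of responses, and for the receptor chains; Ifit3, Dhx58 and Irf3 were added after their values were seen. Of each further list, up to 4 called genes with the smallest p are named; 1 gene of these lists is not reported here and is in no count of them. Alternatives were other scalings, variance models, filters, pseudocounts, a replicate block and leaving out libraries.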

Additional observations from a re-analysis of the deposited data

How the results depend on the processing

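Counts of members called moved as follows. For LPS in wt (12), leaving out 1 library gave 9 to 15, and leaving out wt untreated replicates 1 and 3 together gave 7; the other settings gave 10 to 16, the highest with only the groups compared. For LPS in MyD88ko (2), limma without trend, voom weights and only the groups compared each gave 1, quantile normalization gave 3, and leaving out 1 library gave 1 to 4. Untreated genotypes (0) gave 0 to 1 without 1 library. With LPS, genotypes (2) gave 1 by limma without trend, 1 with a mean of at least 50, 3 by voom weights or a pseudocount of 5 (Gbp5 added), and 0 to 2 without 1 library. The difference of responses gave 0 under every alternative run. Of 16 single-gene calls, 7 held under every alternative and 0 reversed; 321 of 365 values stayed called. No scaling moved the median of all genes by over 0.1. The replicate number as a block gave 13 (LPS in wt), 2 (LPS in MyD88ko), 0 (untreated genotypes), 2 (genotypes with LPS) and 0 (difference of responses) calls; same-numbered libraries correlated at −0.114 to 0.171 over 18 pairs, with 2 pairs over 0.1, so the numbers were not taken to pair libraries. Genes with values near 0 (Gbp5, Dhx58, Zbp1) have folds that depend on the pseudocount. Groups of 3 with an estimated 2.5 to 5.3 megareads in listed genes limit what could be detected in these genes. The alternative without Isg15 and Ifit3 was chosen after seeing the data.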
